A study of Oryctolagus cuniculus with 16 samples.

Results

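The genes described here are TNF, FAS, IFNG, IL4, IL15 and CSF2, which encode 5 secreted or membrane-bound cytokines of lymphocytes and myeloid cells and 1 death receptor. They were followed in rabbit vein grafts removed 1 or 7 days after the operation and in sham-operated controls. All probes whose RefSeq accession belongs to one of these genes were taken, which gave 30 of the 43603 probes on the array and 6 of the 2127 genes that could be named. The array held 5 probes for TNF (NM_001082263), 6 for FAS (NM_001081995), 2 for IFNG (NM_001081991), 5 for IL4 (NM_001163177), 7 for IL15 (NM_001082216) and 5 for CSF2 (NM_001171257). RefSeq gives IL2 as a second name of its IL4 entry, while the probes carry the accession of IL4. All 30 probes passed the filter on dim probes, and 29 of them were well above background on all 16 arrays. The exception was the IL4 probe A_04_P004866, which was well above background on 15 arrays and on 3 of the 4 sham arrays.

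The samples were vein tissue of male rabbits, with 6 arrays of grafts on day 1, 6 arrays of grafts on day 7 and 4 arrays of the sham surgery group, which served as the control. The labels give no genotype, strain or age, and no agent was given to one group and not to another. Total RNA was amplified, labelled with the dye Cy3 and read on Agilent arrays in a single colour. The labels do not say whether the arrays of a group came from separate animals, so that p-values measure only the spread between these samples, which may be technical.

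Arrays labelled as replicates were not equally far apart. On day 1, arrays 1, 3 and 5 differed from each other by less than the noise between spots of one probe, and so did arrays 2, 4 and 6. The same held on day 7. Each of these sets was averaged and counted as 1 sample, so that n was 2 on day 1, 2 on day 7 and 4 for sham. The sham arrays fell into a pair of arrays 1 and 2 and a pair of arrays 3 and 4. The standard deviation of the log2 difference reached 0.715 between pairs, against a spot noise of 0.172. Within the sham pairs, it was only 0.234 for arrays 1 and 2 and 0.187 for arrays 3 and 4. Different graft samples of one day were about as close, with values between 0.186 and 0.198. Sham samples of one pair may therefore not be independent, and neither may the graft samples of one day. The sham arrays were also scanned together and apart from the graft arrays, and batch and surgery cannot be told apart in any comparison with sham. Each of the other 3 scans held 2 arrays of day 1 and 2 of day 7. Well above background were 32973 to 36319 probes, depending on the array. The 75th percentile of the deposited signal, in intensity units, had a median of 942 on day 1, 2652 on day 7 and 1594 in sham, and normalization removed this difference between arrays. All values below rest on few arrays, and that number limits their precision.

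TNF, the founding member of the TNF superfamily, is made mainly by activated macrophages and also by T cells, and acts through a pair of receptors on nearly every cell to induce chemokines, adhesion molecules and proteases. FAS is a receptor of the TNF receptor superfamily whose engagement by FAS ligand can start apoptosis. IFNG is the cytokine of activated T cells and natural killer cells that primes macrophages, and IL4 is the T helper cytokine that drives their alternative activation. IL15 sustains natural killer cells and memory T cells. CSF2, also called GM-CSF, promotes the growth and survival of granulocytes and macrophages. In an injured or newly arterialized vein wall, these signals are known from infiltrating leukocytes and from resident vascular cells.

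Every gene had at least 1 probe that was higher in the grafts than in sham at both times. A probe was called when its adjusted p-value in the limma model was below 0.05 and its log2 fold change was at least 1 in size. On day 1, 29 of the 30 probes were called higher than sham, where 25.1% of all tested probes were. On day 7, 28 of 30 were called higher, against 17.4% of all tested probes. The probes of one gene measure the same RNA and are not independent. The day 1 samples lay above all 4 sham samples for 30 of 30 probes, and 43.5% of all tested probes had this order. On day 7, it held for 29 of 30 probes, against 37.9% of all tested probes. The median log2 fold change of the 30 probes was 1.67 on day 1 and 3.49 on day 7, beside 0.11 and 0.04 over all 35389 tested probes. For day 7 against day 1, the median of the same 30 probes was only 0.01. The higher median against sham on day 7 is therefore not a rise shared by the probes.

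**Figure D1:**
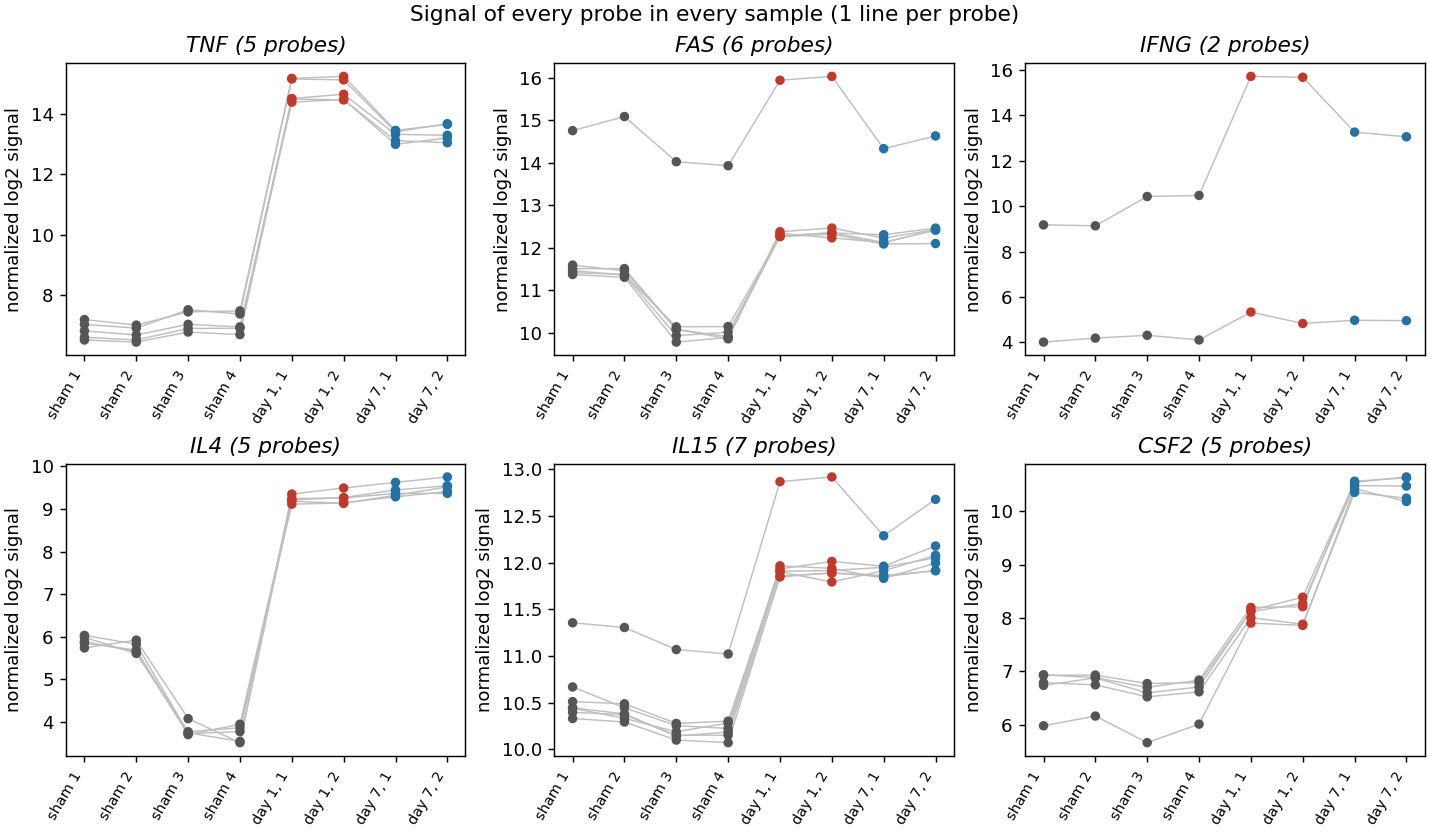
Normalized log2 signal (vertical axis) of all 30 probes in the 4 sham (grey), 2 day 1 (red) and 2 day 7 (blue) samples, with 1 panel per gene and a thin line joining the values of one probe. All 5 TNF probes lay between 6.44 and 7.51 in sham and at or above 12.99 in the grafts, whereas the sham values of FAS and IL4 separated by pair and CSF2 was highest on day 7.

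Between day 1 and day 7, most of the 30 probes were not called, and the called ones went in both directions. The 5 TNF probes, 1 FAS probe and 1 IFNG probe were called lower on day 7 than on day 1, which makes 7 of 30, where 18.9% of all tested probes were called lower. All 5 CSF2 probes were called higher, which makes 5 of 30, against 21.1% of all tested probes. The other 18 probes, among them all of IL4 and IL15, were not called. The day 1 and day 7 samples did not overlap for 21 of 30 probes. With 2 samples a group, this held for 90% of all tested probes, so that the order of these samples by itself carries little.

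TNF showed the largest difference from sham among the 6 genes. The brightest probe, A_04_P001621, had normalized log2 levels of 7.19, 7.00, 7.44 and 7.47 in the 4 sham samples. It reached 15.17 and 15.24 in the day 1 samples and 13.45 and 13.65 in the day 7 samples. All graft samples lay far above all sham samples, and the sham samples differed by less than 1 log2 unit. The log2 fold change was 7.93 ± 0.16 (SE, n = 2 and 4, limma adjusted p = 9.4e-08) on day 1, or 243-fold. On day 7 it was 6.27 ± 0.16 (n = 2 and 4, limma adjusted p = 3.6e-07), or 77.2-fold.

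The other 4 TNF probes gave nearly the same values. Over all 5 probes the log2 fold change ranged from 7.70 to 7.93 on day 1 and from 6.27 to 6.47 on day 7. With normexp background correction, which models the background and adds an offset to every signal, the median over the 5 probes was 6.55 on day 1 and 5.25 on day 7, against 7.87 and 6.37. The difference between day 7 and day 1 lay between -1.65 and -1.27, and all 5 probes were called lower on day 7 (limma adjusted p between 0.00012 and 0.00064). For A_04_P001621 this was a 3.15-fold lower normalized level on day 7. Before normalization, the deposited signal of this probe was nearly the same at both times, with a median of 21329 intensity units on the 6 day 1 arrays and 20076 on the 6 day 7 arrays. The difference between the times is therefore one relative to the other probes on the array, whose 75th percentile was higher on day 7, as given above. The deposited sham signals of this probe were 180, 109, 167 and 166 intensity units on arrays 1 to 4, and no spot of the 6 genes was marked as saturated or outlying on any array.

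FAS was moderately higher in the grafts, and its probes disagreed on day 7. The probe A_04_P080224 had log2 levels of 11.59, 11.45, 10.08 and 9.85 in sham, 12.37 and 12.46 on day 1, and 12.23 and 12.42 on day 7. The graft samples lay above all sham samples, and sham 1 and 2 lay closer to the grafts than sham 3 and 4 did. The log2 fold change was 1.67 ± 0.52 (SE, n = 2 and 4, limma adjusted p = 0.022) on day 1 and 1.58 ± 0.52 (limma adjusted p = 0.034) on day 7. The probes A_04_P080222, A_04_P080223, A_04_P080225 and A_04_P080226 behaved alike, and the log2 fold change of the 5 dimmer probes lay between 1.55 and 1.70 on day 1 and between 1.40 and 1.68 on day 7.

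The brightest FAS probe, A_04_P001811, followed another course. Its log2 levels were 14.75, 15.09, 14.02 and 13.93 in sham, 15.94 and 16.03 on day 1, and 14.33 and 14.63 on day 7. After normalization, the day 7 samples lay within the range of the sham samples. This probe was higher on day 1 (log2 fold change 1.54 ± 0.34, limma adjusted p = 0.0046), and its difference from sham on day 7 was 0.03 (95% interval from -0.77 to 0.83, limma adjusted p = 0.94). It was called lower on day 7 than on day 1, by a log2 difference of -1.51 ± 0.39 (limma adjusted p = 0.012), while the other 5 probes differed between the times by -0.20 to 0.07 with intervals that reached from -1.52 to 1.46. Before normalization, the deposited signal of the brightest probe went the other way between the times, with a median of 17336 intensity units in sham, 33458 on day 1 and 41830 on day 7. Its lower value on day 7 is therefore one relative to the other probes on the array. Which stretch of the transcript each probe covers was not analysed here.

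The size of the FAS difference depended on the sham pair. Against sham 1 and 2 alone, the median log2 fold change of the 6 probes was 0.91 on day 1 and 0.84 on day 7, and 1 and 0 probes were called. Against sham 3 and 4 alone, it was 2.32 and 2.24, and 6 and 5 probes were called. The calls also needed both graft samples of a day. Without either day 1 sample, the 5 dimmer probes were not called on day 1 (A_04_P080224 had a limma adjusted p of 0.084 without sample 1 and 0.096 without sample 2, the remaining sample being assumed to vary like the other groups). Without either day 7 sample, the same 5 were not called on day 7 (0.11 and 0.15), and without sham 3 or sham 4, 2 and 1 of them were not. With the sham arrays averaged in pairs, 4 FAS probes were called on day 7, and with only sham and day 7 in the model 3 were, against 5 as reported. A_04_P080224 then had limma adjusted p-values of 0.046 and 0.055. The lower level of the brightest probe on day 7 than on day 1 was not called without day 1 sample 2 (0.058) or without day 7 sample 1 (0.072). The sham pairs differed in markers of some cell types too. The mean log2 level of 4 smooth muscle markers was 16.52 and 16.57 in sham 1 and 2 and 15.45 and 15.47 in sham 3 and 4, and that of 2 macrophage markers was 9.66 and 9.61 against 10.47 and 10.57. In the same order of samples, the mean was 9.01 and 9.14 against 9.69 and 9.69 for neutrophil markers. For adipocyte markers it was 6.88 and 6.98 against 7.76 and 7.65. For erythrocyte markers it was 19.00 and 19.04 against 18.31 and 18.36. Endothelial and fibroblast markers differed less. For endothelial markers the mean was 7.85 and 7.82 against 7.99 and 7.90. For fibroblast markers it was 18.50 and 18.57 against 18.56 and 18.52. The part of cell types in the FAS, IL4 and IFNG differences between the sham pairs was not tested.

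IFNG was measured by 2 probes that did not give the same picture. The bright probe A_04_P038212 had log2 levels of 9.18, 9.14, 10.43 and 10.48 in sham, 15.72 and 15.68 on day 1, and 13.27 and 13.06 on day 7. The groups did not overlap, and for this probe sham 3 and 4 were the higher pair. Its log2 fold change was 5.90 ± 0.43 (SE, n = 2 and 4, limma adjusted p = 1.7e-05) on day 1, or 59.6-fold, and 3.36 ± 0.43 (limma adjusted p = 0.00049) on day 7, or 10.3-fold. Against sham 1 and 2 alone, these values were 6.54 and 4.01, and against sham 3 and 4 alone they were 5.25 and 2.71, called in all cases. It was called lower on day 7 than on day 1, with a log2 difference of -2.54 ± 0.50 (limma adjusted p = 0.0037). The deposited signal fell with it, from a median of 27958 intensity units on day 1 to 14973 on day 7.

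The dim IFNG probe A_04_P003031 had deposited signals of only 14.9 to 18.7 intensity units in sham, 23.2 to 36.9 on day 1 and 36.2 to 39.1 on day 7. Its normalized log2 levels were 4.02, 4.19, 4.31 and 4.11 in sham, 5.34 and 4.84 on day 1, and 4.98 and 4.96 on day 7. The graft samples lay above the sham samples, but the log2 fold changes of 0.93 ± 0.16 on day 1 (limma adjusted p = 0.0013) and 0.81 ± 0.16 on day 7 (limma adjusted p = 0.0035) were below the required size of 1. Without day 1 sample 2, the day 1 value was 1.18 and was called. Day 7 and day 1 differed by -0.12 (95% interval from -0.55 to 0.31). The centred log2 levels of the 2 IFNG probes differed by 2.11 (root mean square over 8 samples), against at most 0.73 for any pair of a gene's brightest probe and another of its probes among the other 5 genes. The bright probe rests on 1 probe alone, and no other probe on the array checks it.

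**Figure D2:**
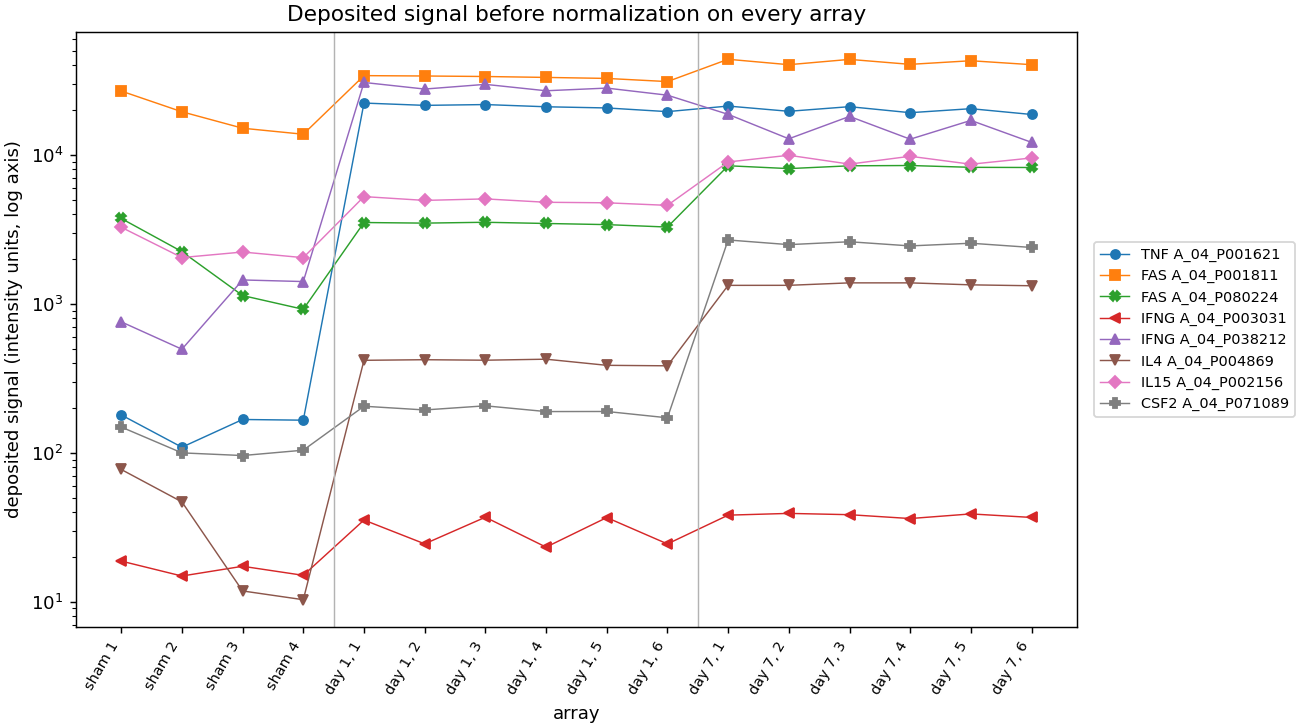
Deposited signal in intensity units (log axis) on each of the 16 arrays, before normalization, for the brightest probe of each gene and for a second FAS and IFNG probe, with lines joining the values of one probe. IL4 and FAS fell from sham arrays 1 and 2 to sham arrays 3 and 4, the bright IFNG probe rose, and TNF had signals of 109 to 180 in sham and 18727 to 22345 in the grafts.

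IL4 was higher in the grafts at both times and was near the lower end of the measured range in sham. The probe A_04_P004869 had log2 levels of 6.03, 5.83, 3.75 and 3.55 in sham, 9.35 and 9.49 on day 1, and 9.62 and 9.75 on day 7. All graft samples lay above all sham samples, and sham 1 and 2 lay about 2 log2 units above sham 3 and 4. The corresponding deposited signals were 77.2, 46.8, 11.8 and 10.3 intensity units on the sham arrays, with medians of 418 on day 1 and 1338 on day 7. The log2 fold change was 4.63 ± 0.76 (SE, n = 2 and 4, limma adjusted p = 0.0011) on day 1, or 24.7-fold, and 4.90 ± 0.76 (limma adjusted p = 0.0012) on day 7, or 29.8-fold.

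All 5 IL4 probes were called higher at both times, with log2 fold changes from 4.32 to 4.63 on day 1 and from 4.53 to 4.90 on day 7. Between day 7 and day 1 they differed by 0.11 to 0.27, and no probe was called (limma adjusted p between 0.78 and 0.91). The intervals of these differences reached from -1.80 to 2.34. Their width comes with the spread of the sham samples, which the model shares among the groups (SD between 1.13 and 1.32 in sham, and at most 0.14 in the grafts). With only the day 1 and day 7 samples in the model, the limma adjusted p of the same differences lay between 0.040 and 0.21. With the 12 graft arrays as separate samples and the scan as a block, it lay between 3.5e-05 and 0.00057, although these arrays include repeats of the same samples. The differences stayed below the required size of 1 in both. The median log2 fold change on day 1 was 3.42 against sham 1 and 2 and 5.41 against sham 3 and 4, and on day 7 it was 3.65 and 5.66. With normexp background correction it was 2.29 on day 1 and 2.43 on day 7, and all 5 probes were still called.

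IL15 was moderately higher than sham at both times. The brightest probe, A_04_P002156, had log2 levels of 11.36, 11.31, 11.07 and 11.02 in sham, 12.87 and 12.92 on day 1, and 12.29 and 12.68 on day 7. The groups of grafts lay above sham without overlap, and the sham samples differed by less than for FAS or IL4. The log2 fold change was 1.71 ± 0.15 (SE, n = 2 and 4, limma adjusted p = 4.4e-05) on day 1 and 1.30 ± 0.15 (limma adjusted p = 0.00031) on day 7. All 7 probes were called higher at both times, with log2 fold changes from 1.54 to 1.71 on day 1 and from 1.30 to 1.71 on day 7. Between the times, the brightest probe differed by -0.41 (95% interval from -0.83 to 0.01, limma adjusted p = 0.079) and the other 6 by -0.04 to 0.15, and none was called. Before normalization, the deposited signal of the brightest probe had a median of 2140 intensity units in sham, 4887 on day 1 and 9270 on day 7. The deposited signals of the other 6 were higher on day 7 than on day 1 too. The course between the times is therefore one relative to the other probes on the array.

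CSF2 rose late. The brightest probe, A_04_P071089, had log2 levels of 6.94, 6.88, 6.70 and 6.84 in sham, 8.20 and 8.21 on day 1, and 10.57 and 10.63 on day 7. The 3 groups were separate, and CSF2 was the only one of the 6 genes for which all probes were called higher on day 7 than on day 1. The log2 fold change from sham was 1.37 ± 0.10 (SE, n = 2 and 4, limma adjusted p = 1.4e-05) on day 1, or 2.58-fold, and 3.76 ± 0.10 (limma adjusted p = 4.1e-07) on day 7, or 13.5-fold. The difference between day 7 and day 1 was 2.39 ± 0.11 (n = 2 and 2, limma adjusted p = 6.1e-06).

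All 5 CSF2 probes had log2 fold changes from 1.28 to 1.93 on day 1 and from 3.63 to 4.35 on day 7, and the differences between the times ranged from 2.28 to 2.42. The deposited signal of A_04_P071089 had a median of 102 intensity units in sham, 192 on day 1 and 2529 on day 7. The day 1 rise was close to the required size. With normexp background correction, the median log2 fold change was 0.88 on day 1 and 1 of 5 probes was called, while on day 7 it was 2.76 and all 5 were called.

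**Figure D3:**
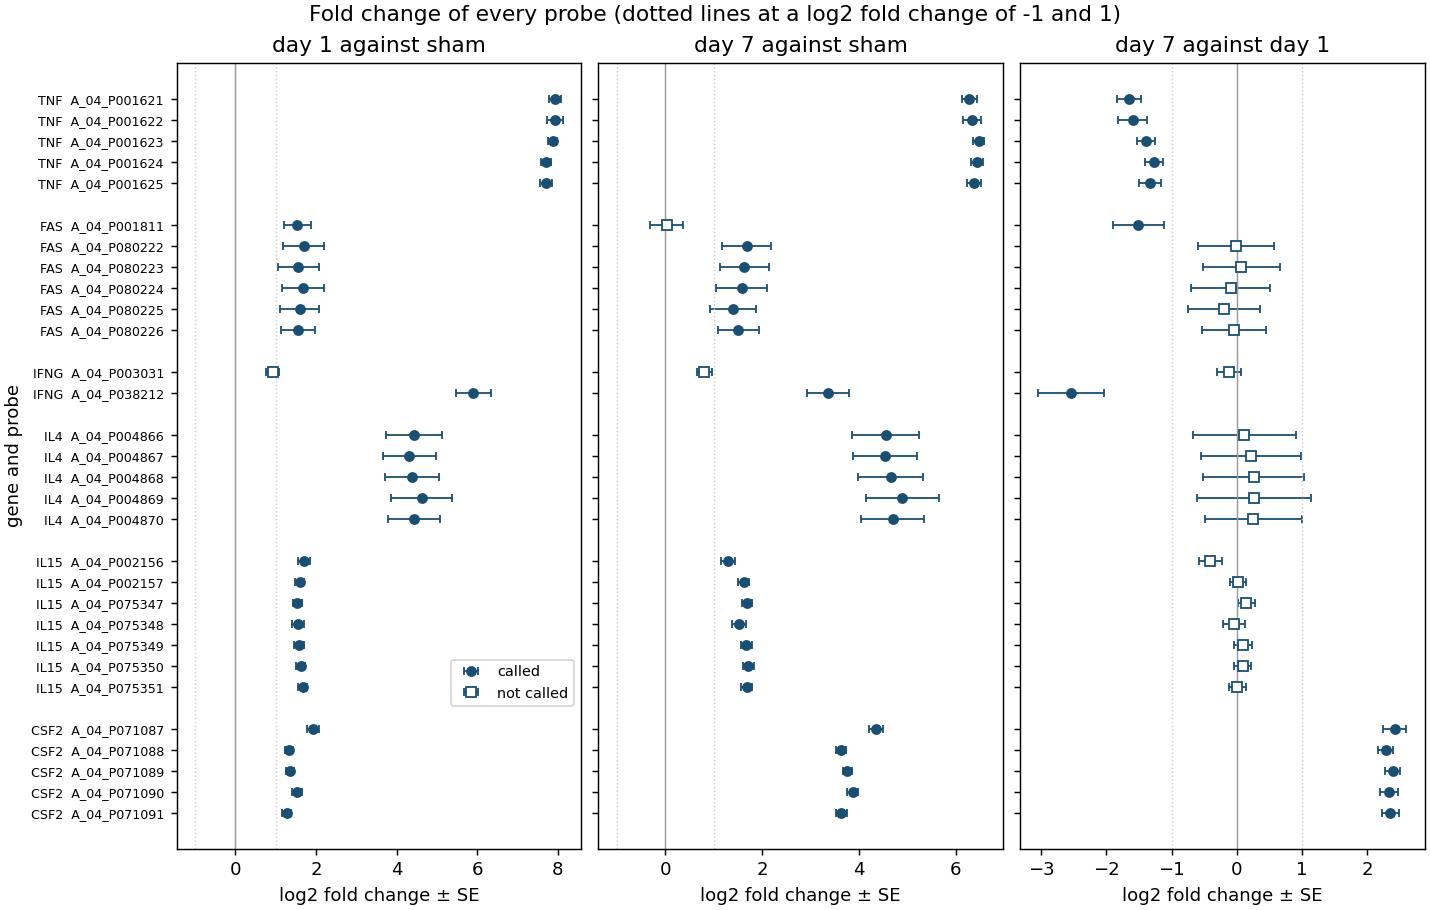
Log2 fold change ± SE (horizontal axis) of all 30 probes for both times against sham and for the later against the earlier time; filled circles are called probes, open squares are not, and dotted lines mark the required size of 1. TNF lay between 7.70 and 7.93 on day 1, CSF2 between 2.28 and 2.42 for day 7 against day 1, and a single probe of FAS and of IFNG departed from the others of its gene.

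The day 7 against day 1 differences were the same within each scan, since scans 1, 2 and 4 each held both times. For TNF A_04_P001621 the log2 difference was -1.65, -1.67 and -1.65 in the 3 scans, for IFNG A_04_P038212 it was -2.53, -2.54 and -2.55, for FAS A_04_P001811 it was -1.51, -1.51 and -1.50, and for CSF2 A_04_P071089 it was 2.40, 2.35 and 2.43. These arrays share the samples described above, so that the scans repeat the measurement and do not add replicates.

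Ordered by the course of their brightest probes, TNF and IFNG were highest on day 1 and still above sham on day 7, FAS was highest on day 1, IL4 and IL15 were not called different between the times, and CSF2 was highest on day 7. The change from sham differed between the times for TNF, IFNG, FAS and CSF2, as tested by day 7 against day 1 in the same model. For FAS it was called for the brightest probe and not for the other 5, and for IFNG for the bright probe and not for the dim one.

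The named genes with the most similar course were sought for the brightest probe of each gene, by the root mean square difference of centred log2 levels over the 8 samples among 1783 named genes well above background on every array. For TNF these were CCL4 (0.37), a macrophage chemokine, SAA3 (0.51), an acute phase protein, and KMO (0.60), an enzyme of tryptophan breakdown. For IFNG they included the neutrophil proteins S100A9 (0.31) and S100A8 (0.32). CSF2 had RLN3 (0.17), CSN3 (0.35) and the cell cycle kinase CDK1 (0.40). FAS had PDE1C (0.13), NMNAT2 (0.14) and SLC25A24 (0.15), and IL15 had POLK (0.09), MORF4L1 (0.15) and MCTP2 (0.15). By the same measure, the other FAS probes lay 0.63 to 0.73 from the brightest one, and the dim IFNG probe lay 2.11 from the bright one. For FAS and IFNG, the similar genes are therefore those of 1 probe whose course the gene's other probes did not share. For IL4 no gene came as close, with ANKRD1 (0.77), LOC100009136 (0.81) and the protease MMP3 (0.83) as the nearest. A difference of this kind is small for any gene that changed little, and the values are a description over 8 samples.

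Genes known to act with these cytokines were counted through the brightest probe of each gene, and 28.6% of all 19209 tested genes were called higher and 22.2% lower on day 1. On day 7, 17.4% of genes were called higher and 13.7% lower. The lists were chosen with earlier results of these data known, so that counts above these shares are a description and no independent result. Of 17 genes known to be induced by TNF, 11 had a named and tested probe. On day 1, 8 of these were called higher and 1 lower, with a median log2 fold change of 5.32 beside 0.25 over all genes. On day 7, 8 were called higher and 1 lower, with a median of 3.84 beside 0.04. The chemokine CCL4 was the highest on day 1, with a log2 fold change of 8.23, and the cytokine IL1B on day 7, with 6.73. The lowest were F3, the initiator of coagulation, with -2.43 on day 1, and PTGS2, the inducible cyclooxygenase, with -1.71 on day 7.

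Between day 7 and day 1, 3 of the 11 TNF-induced genes were called higher and 5 lower, where 19.2% and 22.1% of all genes were. The protease MMP9 had the largest fall, with a log2 difference of -5.05, and the adhesion molecule VCAM1 the largest rise, with 2.02. The list did not move in one direction between the times, while all 5 TNF probes were lower.

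Fewer genes could be measured for the other cytokines. Of 22 genes known to be induced by IFNG, 3 were tested. The inflammatory protease CASP1 was called higher at both times, with log2 fold changes of 3.89 and 3.89, and so was the oxidase subunit CYBB, with 2.67 and 5.97. The transcription factor IRF1 had 0.18 on day 1, where it was not called, and 3.03 on day 7, where it was. Of 11 genes known to be induced by IL4, 3 were tested. ARG1, the arginase of alternatively activated macrophages, was called higher with 5.55 and 10.05, and so was the scavenger receptor MSR1 with 6.17 and 6.65. ALOX15 was not called, with 0.31 ± 2.44 (SE) on day 1 and 0.29 ± 2.44 on day 7. With an error of this size, its probe could not tell a large rise from a large fall.

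Of 19 other members of the TNF and TNF receptor superfamilies, 6 were tested. On day 1, 4 were called higher, and on day 7, 2 were. The B cell survival factor TNFSF13B was the highest at both times, with log2 fold changes of 1.84 and 4.56. The lowest was TNFSF4, the ligand of OX40, on day 1, with -0.16, and LTA, the lymphotoxin alpha of lymphocytes, on day 7, with 0.31. LTA is the next gene to TNF in the order of RefSeq's rabbit assembly. Its 1 probe had a log2 fold change of 1.31 ± 0.46 on day 1 (limma adjusted p = 0.035), against 7.70 to 7.93 for the TNF probes.

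**Figure D4:**
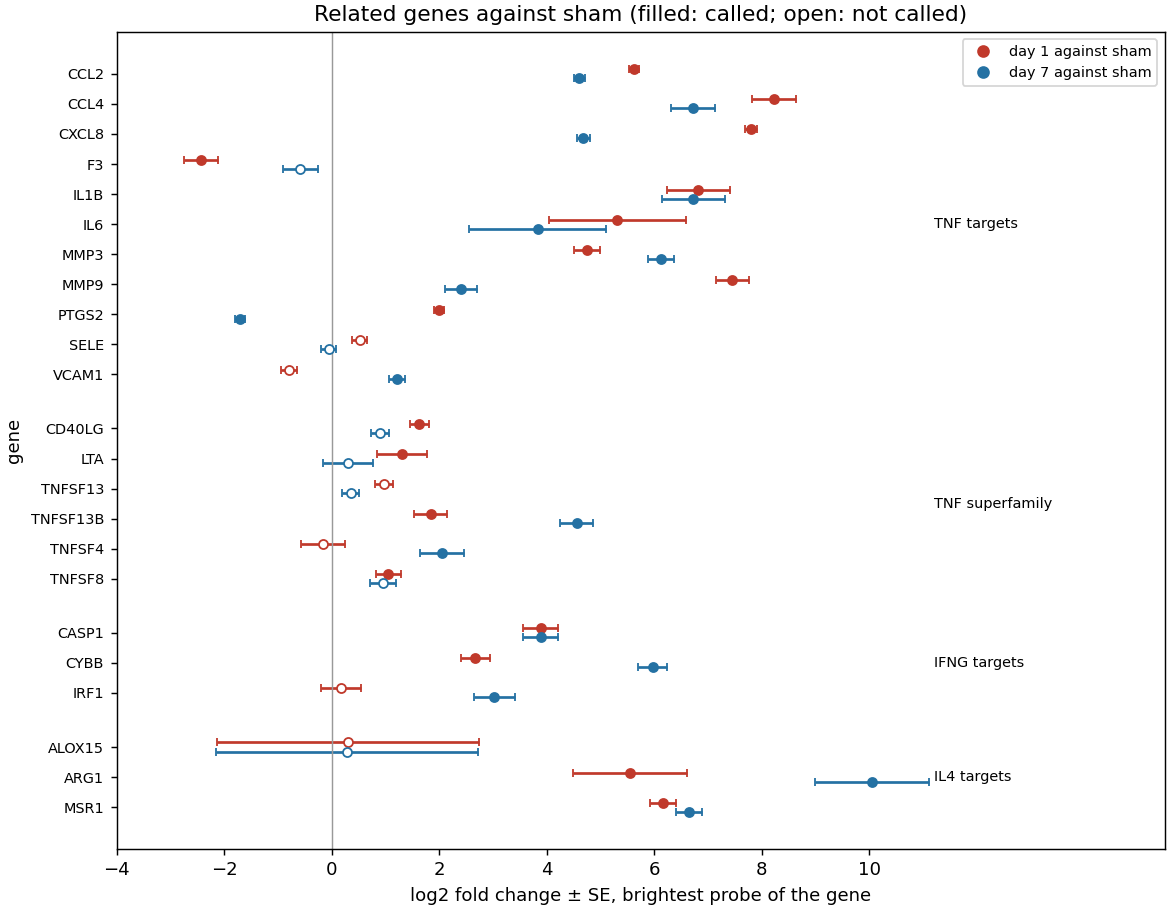
Log2 fold change ± SE (horizontal axis) from sham on day 1 (red) and day 7 (blue) of the 23 tested genes on the lists of TNF-induced, TNF superfamily, IFNG-induced and IL4-induced genes, each by its brightest probe; filled circles are called. CCL4 reached 8.23 on day 1 and ARG1 10.05 on day 7, while SELE, ALOX15 and TNFSF13 were not called at either time.

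Of the genes directly beside the 6 in RefSeq's order, LTA, IL26 and ACTA2 had a tested probe. IL26 lies next to IFNG, and its log2 fold changes of 0.69 and 0.96 were below the required size. ACTA2, the smooth muscle actin next to FAS, was called lower on day 1, with a log2 fold change of -5.14, was not called on day 7, with -0.49, and was called higher on day 7 than on day 1, with a log2 difference of 4.65. CSF2 and IL4 lie on the same chromosome with 8 protein-coding genes between them, IRF1 among these. CSF2 rose between day 1 and day 7 by 2.28 to 2.42 and IRF1 by 2.85, while the IL4 probes differed by 0.11 to 0.27. IRF1 was dim, with a mean log2 level of 3.83 in sham and 4.01 on day 1. On day 1, only 5 arrays measured it well above background. PDLIM4 and SLC22A4, also between CSF2 and IL4, had tested probes whose values are not given here, so that IRF1 does not stand for the whole stretch.

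The arrays measured RNA of whole vein tissue, in which more cells of a type and more RNA per cell cannot be told apart. Several leukocyte markers were higher in the grafts than in sham, and their courses between the times differed. Of 9 neutrophil markers 6 were tested, and all 6 were called higher on day 1, 4 on day 7, and all 6 lower on day 7 than on day 1. Over all tested genes, the shares were 28.6%, 17.4% and 22.1% in the same order. Their mean log2 level was 9.01 to 9.69 in sham, 14.60 to 14.63 on day 1 and 11.38 to 11.52 on day 7. Of 11 macrophage and monocyte markers 2 were tested, CD14 and MSR1. The MSR1 probe is the same as on the list of IL4-induced genes and adds no separate measurement. CD14 and MSR1 were called higher at both times, and their mean log2 level was 9.61 to 10.57 in sham, 15.9 to 16.0 on day 1 and 15.7 to 15.8 on day 7. The part of these cells in the differences of the cytokines was not tested.

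Of 9 T cell markers 4 were tested, and 2 were called higher on each day, where 28.6% and 17.4% of all tested genes were. CD3E had log2 fold changes of 0.52 on day 1 and 1.81 on day 7, CD5 of 2.90 and 1.39, CD4 of 2.63 and -0.12, and CD28 of 0.32 and 0.03. The mean log2 level of the 4 was 5.20 to 5.46 in sham, 6.77 to 7.07 on day 1 and 6.06 to 6.15 on day 7. The 1 tested B cell marker, MS4A1, was called higher on day 1 with 2.28 and not on day 7 with 0.39. No marker of natural killer or mast cells had a tested probe, so that these sources of IFNG, IL4 or TNF could not be set beside the cytokines.

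Markers of the vein wall were lower or did not pass the test in the grafts. Over all tested genes, 22.2% were called lower on day 1 and 13.7% on day 7. Of 4 tested smooth muscle markers, 2 were called lower on day 1 and 3 on day 7, with the myosin MYH11 at log2 fold changes of -5.33 and -6.49. All 4 were well above background in sham, as the label of vein tissue has it. Of 4 tested endothelial markers, 2 were called lower on day 1 and 3 on day 7. One of them, the receptor KDR, was not well above background on any graft array. Of 2 tested adipocyte markers, ADIPOQ was called lower at both times and was at least 53.3-fold lower on day 1, where no array measured it well above background, and LEP was not called. Of 2 fibroblast markers, 2 were lower on day 1 and 1 on day 7. The haemoglobin genes HBA and HBB2 were not called at either time, with log2 fold changes between -0.46 and 0.77.

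**Figure D5:**
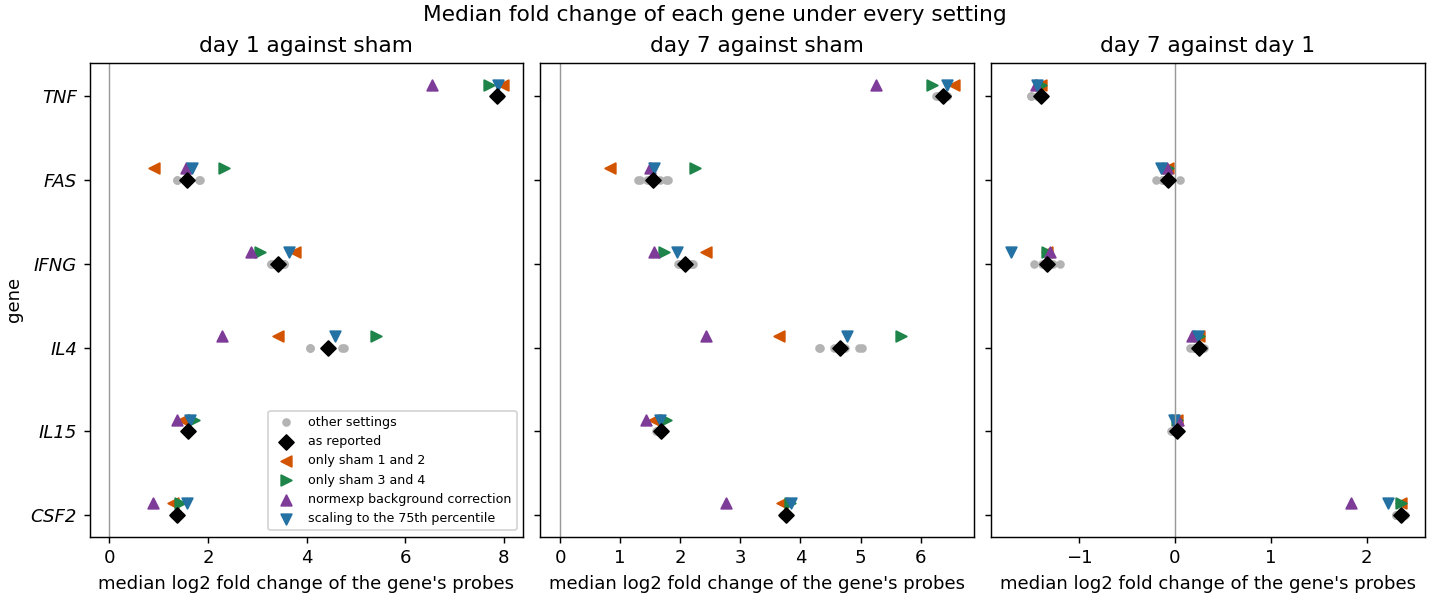
Median log2 fold change of each gene's probes (horizontal axis) under every processing setting and with each sample left out, for the 3 comparisons; black diamonds are the reported values and coloured symbols the settings that moved most. TNF stayed above 5 against sham in every setting, FAS and IL4 moved with the sham pair, normexp gave CSF2 a median of 0.88 on day 1, and the median of IFNG averages 2 unlike probes.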

How the data were processed

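Cy3-labelled RNA of rabbit vein tissue was measured on 16 Agilent one-colour arrays. The authors deposited signal intensities that Feature Extraction had background-subtracted (version 9.1 in the submitters' processing notes, 11.0.1.1 in the file headers). They also deposited log2 values, made by quantile normalization in GeneSpring with a filter on low values. The genome build of the probe design was not used here, and no coordinates are given.

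Control spots were removed, and spots called outlying or non-uniform were set to missing. Log2 signals were quantile-normalized and averaged over the spots of a probe, so that every value is relative to the other probes on its array. A probe was kept if all arrays of 1 group or more measured it well above background, and 373 probes with a missing sample value were dropped, which left 35389. Arrays closer to each other than the spot noise were merged into 1 sample. A single limma model (version 3.58.1, R 4.3.3, functions lmFit and eBayes) held the 3 groups, with two-sided p-values, Benjamini-Hochberg adjustment over all tested probes and 5 residual degrees of freedom. Where no array of a group measured a probe well above background, the fold is a bound against the lowest signal well above background on each array. The fit was tested on simulated data. Figures were made with matplotlib 3.10.9 (Python 3.11.15).

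Probe names came from RefSeq accessions in a table of the assembly mOryCun1.1 (3368 probes) and from gene identifiers of a supplementary table (2816 probes), and 633 of 633 probes with both gave the same gene. The 6 genes and all lists were chosen with earlier results of these data known. Named are all probes of the 6 genes, the highest and lowest tested gene of each list and the 3 genes most like each of the 6. A list of receptors and signalling proteins and 1 of the most similar genes are not reported here. Other list genes, marker genes and neighbouring genes were named after their values were seen. Probes were not placed within their transcripts, and no probe, promoter or protein sequence was used here.

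The alternatives were 16 separate arrays, the normalized values of the authors, scaling by percentile 75, normexp with an offset of 50, other filters, 1 probe per gene, the compared groups only, sham arrays in pairs, scan or replicate blocks, outlying spots kept and each sample left out. Each sham pair alone was added after seeing the data.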

Additional observations from a re-analysis of the deposited data

Results flagged for a closer look

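The change from sham differed between day 7 and day 1 for the brightest probe of 4 genes, by the test of day 7 against day 1 in the limma model. The log2 change was smaller on day 7 for TNF (difference -1.65), for FAS (-1.51) and for IFNG (-2.54), and larger on day 7 for CSF2 (2.39). Both changes are taken against the same sham samples, which cancel in the difference. The other 5 FAS probes and the dim IFNG probe did not pass this test. The FAS difference was not called without day 1 sample 2 or without day 7 sample 1, with log2 differences of -1.46 and -1.36.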

How the results depend on the processing

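Against sham, 29 probes were called on day 1 and 28 on day 7, and 12 were called between the times. These counts stayed within 1.5 times in every setting that kept each gene's probes apart. With 1 probe per gene, 6, 5 and 4 of 6 genes were called. Leaving out 1 sample gave 24 to 29, 23 to 28 and 11 to 12 called probes. The replicate numbers did not pair the samples (correlations of their deviations between -0.02 and 0.04), and the replicate block on 16 arrays gave 29, 28 and 12. With sham 1 and 2 alone, 24 and 23 probes were called against sham, and the 5 lost at each time were FAS probes. Of the 90 differences of the 30 probes, 10 turned direction in at least 1 setting. None of these was called as reported, and their reported size was at most 0.12. They were 5 differences of FAS, 4 of IL15 between the times and 1 of IFNG. The IL15 median between the times, 0.019 as reported, was -0.039 with the authors' values and -0.012 with scaling to the 75th percentile. For the brightest FAS probe on day 7 against sham, the value was -0.072 with the authors' values, -0.073 with outlying spots kept, -0.44 with sham 1 and 2, and -0.14 to 0.24 with 1 sample left out. For the dim IFNG probe between the times, it was 0.019 with normexp and -0.37 to 0.13 with 1 sample left out. For the FAS probe A_04_P080224 between the times, it was -0.19 to 0.0051 with 1 sample left out. Scaling to the 75th percentile called the dim IFNG probe, with 1.62 on day 1 against sham and -1.08 between the times. It moved the median of all probes to 0.46 and -0.36 in these comparisons, and the share of higher calls from 50.4% to 63.9% and from 52.8% to 33.8%. Normexp lowered the calls over all probes from 17620 to 10275 on day 1, from 11622 to 6795 on day 7 and from 14138 to 7196 between the times. The cause was not tested.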
